A study of Mus musculus with 13 samples.

Results

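The genes of the proteasome were described across 13 RNA sequencing libraries of hippocampal CA1 tissue from mouse organotypic cultures. They were chosen by name alone, as every symbol made of Psma, Psmb, Psmc or Psmd and a number, with Psmb8 and Psmb9 left out, which gave 37 of the 55291 gene symbols in the files. Of these, 17 code for subunits of the 20S core (8 Psma and 9 Psmb genes) and 20 for subunits or assembly factors of the 19S cap (6 Psmc and 14 Psmd genes). The rule reads names and no values, but it was set with earlier results of these data known.

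The 26S proteasome is the protease that degrades ubiquitin-tagged proteins in the cytosol and nucleus. Its 20S core is a barrel of stacked rings. The outer rings consist of alpha subunits (Psma), which gate the entry, and the inner rings of beta subunits (Psmb), of which Psmb5, Psmb6 and Psmb7 carry the constitutive chymotrypsin-like, caspase-like and trypsin-like sites. The 19S cap holds a ring of ATPases (Psmc) that unfolds substrates and non-ATPase subunits (most Psmd) that bind and remove ubiquitin. In neurons, proteasomes act at synapses as well as in the soma, and in immune cells cytokines replace the catalytic subunits with Psmb8, Psmb9 and Psmb10.

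All cultures were wildtype C57BL/6 by their titles, while the growth protocol names both C57BL/6J and Thy1-eGFP-M pups of either sex. Entorhino-hippocampal slices were taken at postnatal day 4 to 5 and kept for at least 18 days in vitro, and none carried a drug, virus or deletion. The 5 control cultures were not lesioned. In 4 cultures the Schaffer collaterals between CA3 and CA1 were cut (SCL), in 4 others the perforant path from the entorhinal cortex (ECL), and the CA1 area of each culture became 1 library, 3 days after the cut and without the scar. The libraries are called biological replicates, but whether they came from different animals is not stated, so p-values measure the spread between these cultures. Headings in the files carry the letters f and m, read here as sex: 3 f and 2 m in controls, 3 f and 1 m after SCL, and 1 f and 3 m after ECL.

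Library totals were 14371152 to 21092612 counts in controls, 16405517 to 56786613 for SCL and 20210165 to 46449937 for ECL. All values below are normalized counts, that is counts divided by the relative size of their library. The protocol text speaks of the dentate gyrus where titles and study speak of CA1. The 6 CA1 pyramidal cell markers summed to 8566 to 10809 normalized counts in controls, 8041 to 10102 after SCL and 7161 to 12674 after ECL, and the 6 dentate granule cell markers to 2103 to 2493, 1504 to 1621 and 1478 to 1857. Of the latter, C1ql2, Dsp and Lct had group means of at most 18.8, while Prox1 had means of 318 to 420, Pdzd2 of 362 to 455 and Stxbp6 of 837 to 1384. The share of mitochondrial counts was 6.07% to 7.96% in controls and 3.42% to 5.38% after the lesions. In bulk tissue, fewer cells of a type and less RNA per cell cannot be told apart.

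Replicate 1 of SCL and replicate 1 of ECL stood apart in the members themselves. Their summed 19S level, scaled by exon length, was 43070 and 41960 normalized counts per kilobase, against 26280 to 30700 in the other 6 lesioned libraries and 23810 to 25870 in the controls. Of the 20 genes of the cap, 16 had their highest SCL value in SCL 1 and also their highest ECL value in ECL 1, and so did 6 of the 15 tested core genes, against 19.7% of 11364 genes tested in both comparisons. Ubb, one of the ubiquitin genes, had 270440 and 222970 normalized counts in these libraries, 95786 to 132800 in the other lesioned ones and 44297 to 90501 in controls. Other lists stood apart in the same libraries. The summed CCT chaperonin genes had 53630 and 54188 normalized counts in SCL 1 and ECL 1, against 36758 to 43486 in the other lesioned libraries, the COP9 signalosome genes 26248 and 28813, against 17766 to 23522, and the excitatory neuron markers 144010 and 154850, against 111950 to 131890. Summed microglial markers, with 63751 and 60684, lay within the range of the others, 46923 to 87276. The part of these differences in the proteasome values was not tested. Both libraries were kept in the fits unless stated, and the main counts of core and cap genes that rose are also given without them. Their column headings share the letter f and the number 3, and ECL 1 is the only f library of its group. The heading of control 3 holds the same letter and number, and its summed 19S level per kilobase, 23810, was the lowest of all libraries.

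**Figure D1:**
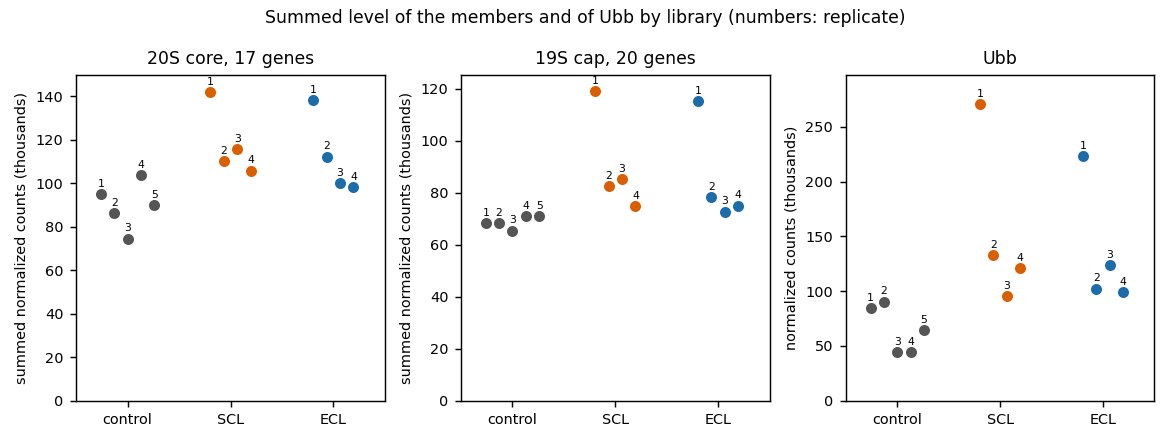
Summed normalized counts (divided by 1000, linear axis from 0) of the 17 core genes (left), of the 20 cap genes (middle) and of Ubb alone (right) in each library, with the replicate number beside each point. SCL 1 and ECL 1 lie above all other libraries in the 3 panels, and the controls lie lowest for the cap.

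As a whole, messenger RNA of the proteasome took a larger share of the libraries after both lesions. The 17 core genes held 0.297% to 0.362% of all counts in controls, 0.422% to 0.4995% after SCL and 0.389% to 0.511% after ECL. The 20 cap genes held 0.239% to 0.268%, 0.299% to 0.419% and 0.290% to 0.426%. Neither lesion group overlapped the controls in either share of counts, with or without SCL 1 and ECL 1. In summed normalized counts the core overlapped after ECL, where control 4 exceeded ECL 3 and ECL 4. The ranges were 74501 to 103610 in controls, 105740 to 141790 after SCL and 98119 to 138230 after ECL. Of the 103610 in control 4, Psma3 alone held 25672, against 4687 to 13494 in the other controls. The cap did not overlap, with 65423 to 71131 in controls, 74892 to 119020 after SCL and 72747 to 115370 after ECL. Per kilobase, the cap reached 0.611 to 0.717 of the level of the core in controls, 0.575 to 0.707 after SCL and 0.556 to 0.678 after ECL, and these ranges overlapped.

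Among single genes, 35 of the 37 had a mean of at least 150 normalized counts in each comparison and were tested, with edgeR's quasi-likelihood test and p-values adjusted over all genes tested (Benjamini-Hochberg, threshold 0.05). Psma8, the testis form of an alpha subunit, had group means of 23.7 (control), 13.5 (SCL) and 5.01 (ECL), and Psmb11, the thymus form of a catalytic subunit, of 1.67, 1.49 and 2.00, and both were left out. After SCL, 14 of the 35 tested members rose and 0 fell, while 24.6% of the 11733 genes tested were called, 13% higher and 11.6% lower. After ECL, 12 rose and 2 fell, while 27.6% of the 11392 genes tested were called, 15.1% higher and 12.4% lower. The median log2 fold change over all genes was 0.01 after SCL and -0.01 after ECL. Values above 0 were found for 28 of the 35 members after SCL, against 50.7% of all genes, and for 29 after ECL, against 49.6%. At an unadjusted p under 0.05 there were 23 members after SCL, against 38.5% of all genes, and 16 after ECL, against 40.2%. All 4 SCL libraries lay above all controls for 11 members, against 11.9% of all genes, and below them for 0, against 11.4%. All 4 ECL libraries lay above all controls for 12 members, against 12.8%, and below them for 1, against 12.1%.

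By subcomplex, 7 of 15 core genes rose after SCL, with a median log2 fold change of 0.35 and a range of -0.74 to 1.29. After ECL, 6 core genes rose and 2 fell, with a median of 0.31 and a range of -1.35 to 1.47. In the cap, 7 of 20 genes rose after SCL (median 0.44, range -0.26 to 1.19) and 6 of 20 after ECL (median 0.30, range -0.26 to 1.33), and 0 fell after either. Of all genes, 13% were called higher after SCL and 15.1% after ECL. Without SCL 1, the numbers that rose after SCL were 6 in the core and 5 in the cap, with medians of 0.34 and 0.28 and 8.6% of all genes called higher. Without ECL 1, 5 core and 4 cap genes rose after ECL, with medians of 0.21 and 0.10 and 11.9% of all genes called higher. The choice of genes used to scale the libraries also moved these values. Scaling over all symbols instead of the genes tested shifted the median of all genes to 0.21 after SCL and 0.18 after ECL, moved the split of all calls after SCL from 1529 higher and 1362 lower to 2554 and 602 and after ECL from 1722 and 1417 to 2460 and 695, and gave member medians of 0.56 (core) and 0.64 (cap) after SCL and 0.50 in both after ECL. With DESeq2's size factors, the split after SCL was 1794 higher and 991 lower.

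**Figure D2:**
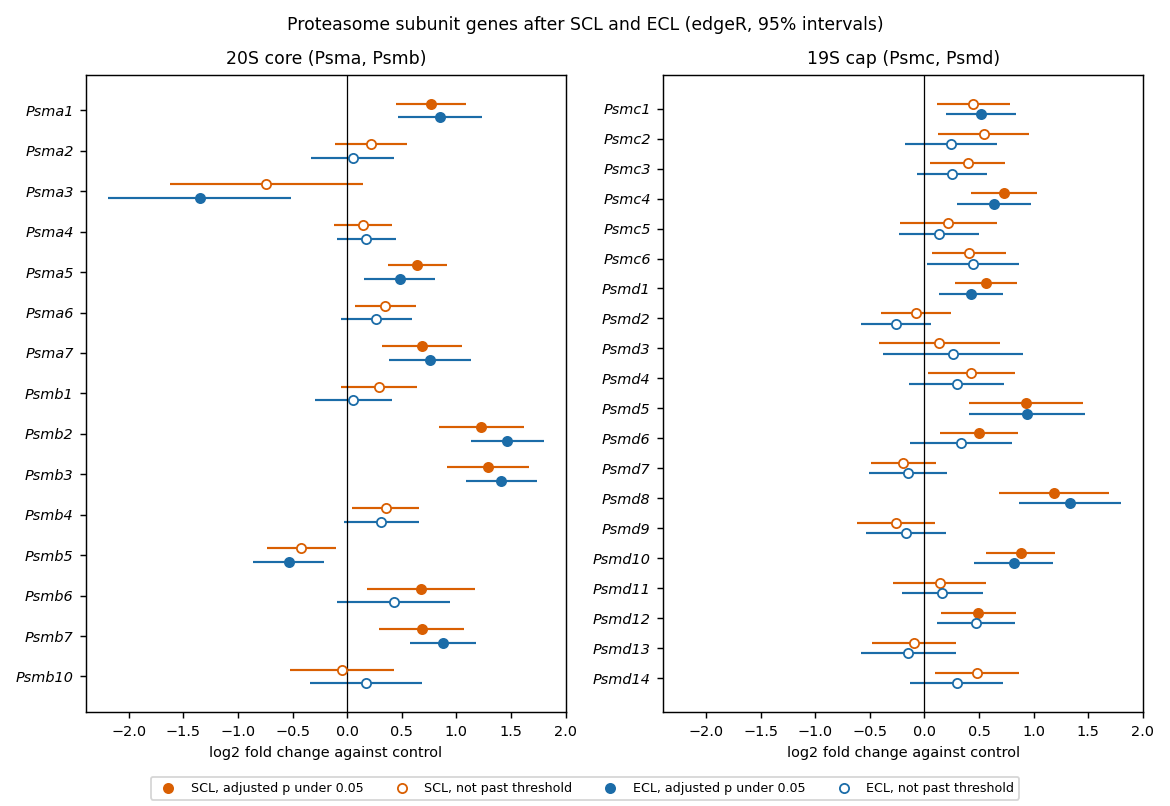
Log2 fold change against control (horizontal axis) with its 95% interval for the 15 tested core genes (left) and the 20 cap genes (right), after SCL (orange) and ECL (blue), with filled points for an adjusted p under 0.05. The largest values are those of Psmb2, Psmb3 and Psmd8, and the only filled points below 0 are Psma3 and Psmb5 after ECL.

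Both lesions were measured against the same 5 controls. Psma1, Psma5, Psma7, Psmb2, Psmb3, Psmb7, Psmc4, Psmd1, Psmd5, Psmd8 and Psmd10, 11 of the 35 tested members, rose after both. Of all genes, 13% were called higher after SCL and 15.1% after ECL. The share of all genes called higher after both was not counted. With shared controls, calls after both lesions are not independent. Psmb6, Psmd6 and Psmd12 passed the threshold after SCL alone, Psmc1 after ECL alone. These calls are no measure of a difference between lesions, which was tested separately. Of the 11, Psma1, Psmb2, Psmb3, Psmd8 and Psmd10 passed after both lesions in each of the 21 alternatives tried per lesion, whereas Psmb6, Psmd6 and Psmd12 lost their call after SCL in 13 of 21 each.

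Among the alpha subunits, 3 of 7 rose after SCL and the same number after ECL, where Psma3 fell. This was 42.9% after each, against 13% (SCL) and 15.1% (ECL) of all genes called higher. Psma2, Psma4 and Psma6 did not pass after either lesion. Psma1 counted 4035, 3825, 3497, 3708 and 4186 in control replicates 1 to 5, 6905, 5635, 8419 and 5233 after SCL, and 8232, 8788, 4344 and 6215 after ECL. Every lesioned library lay above every control. The log2 fold change was 0.77 ± 0.15 (SE, adjusted p = 0.0046) after SCL and 0.85 ± 0.18 (adjusted p = 0.00409) after ECL. Psma7, also without overlap, rose by 0.68 ± 0.17 (adjusted p = 0.0128) and 0.76 ± 0.17 (adjusted p = 0.0063). Psma5 rose by 0.64 ± 0.12 (adjusted p = 0.0046) and 0.48 ± 0.15 (adjusted p = 0.0306). Of its 100-base stretches, 76.3% occur in no other annotated gene, and its call after ECL was lost in 8 of 21 alternatives, among them the fits without ECL 1 and without control 3, 4 or 5. With an offset for exon length and GC content, Psma5 passed after neither lesion.

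Psma3 went the other way. It counted 10092, 6078, 4687, 25672 and 13494 in the controls, 10741, 6605, 4694 and 6445 after SCL, and 5800, 5256, 3379 and 4259 after ECL. Control 4 held more than 2 times the value of any lesioned library, the controls spread more than for any other tested member (69.9% of their mean, against a median of 15.4% over the members), and the groups overlapped. The log2 fold change after ECL was -1.35 ± 0.39 (adjusted p = 0.0203), and after SCL it was -0.74 ± 0.41 (adjusted p = 0.201). The call after ECL was lost without ECL 3, without ECL 4 and with a term for sex. Psma3 shares 100-base stretches with the gene model Gm13835, which is counted separately and rose after both lesions, from 7494 ± 1064 (SD, n = 5) to 10110 ± 1121 (n = 4) and 10350 ± 1660 (n = 4), with log2 fold changes of 0.44 (adjusted p = 0.0388) and 0.47 (adjusted p = 0.0343). When the counts of both were added, the log2 fold change was -0.37 ± 0.27 after ECL (adjusted p = 0.339) and -0.17 ± 0.27 after SCL (adjusted p = 0.688), so neither passed. This sum was chosen after seeing the data, and how reads were shared between the 2 loci was not tested.

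Of the beta subunits, Psmb2 and Psmb3, which have no catalytic site, showed the largest increases of all members. Psmb2 (ENSMUSG00000028837, chr4:126677630-126709714, plus strand, GRCm38) counted 4348, 4518, 4082, 2944 and 3898 in controls, 9733, 8483, 12199 and 6722 after SCL, and 12353, 11755, 9058 and 10378 after ECL. Psmb3 (ENSMUSG00000069744, chr11:97703399-97713500, plus strand) counted 3479, 3580, 2809, 2281 and 3098 in controls, 8212, 6572, 9289 and 5741 after SCL, and 9207, 8084, 7142 and 7854 after ECL. For both genes, the lowest lesioned library, SCL 4, lay well above the highest control. Psmb2 rose 2.34-fold after SCL (log2 1.23 ± 0.18, adjusted p = 0.00156) and 2.76-fold after ECL (1.47 ± 0.15, adjusted p = 7.36e-05). Psmb3 rose 2.44-fold after SCL (1.29 ± 0.17, adjusted p = 0.00131) and 2.66-fold after ECL (1.41 ± 0.15, adjusted p = 8.37e-05).

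The 3 genes of the constitutive catalytic sites did not move together. Psmb7, the trypsin-like subunit, counted 1734, 1369, 1532, 1509 and 1660 in controls, 2790, 2200, 3344 and 1659 after SCL, and 3340, 2854, 2291 and 2916 after ECL. It rose by 0.68 ± 0.18 after SCL (adjusted p = 0.0169), where SCL 4 lay among the controls, and by 0.88 ± 0.14 after ECL (adjusted p = 0.000819), with no overlap. Without SCL 3 the call after SCL was lost. Of its exon bases, 11.8% also belong to Nek6 on the opposite strand, and the counting ignored strand.

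Psmb6, the caspase-like subunit, counted 9552, 8583, 6032, 7903 and 6953 in controls, 19148, 12269, 7463 and 10888 after SCL, and 17116, 6762, 10536 and 7245 after ECL. Replicate 1 was highest after each lesion, and both lesion groups overlapped the controls. The log2 fold change was 0.68 ± 0.23 after SCL (adjusted p = 0.0479) and 0.42 ± 0.24 after ECL (adjusted p = 0.208). Leaving out any control, or SCL 1, 2 or 4, ended the call after SCL.

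Psmb5, the chymotrypsin-like subunit and the target of proteasome inhibitors in clinical use, was lower after the lesions. It counted 1586, 1948, 2021, 1958 and 1735 in controls, 1246, 1626, 1138 and 1523 after SCL, and 1460, 1004, 1404 and 1204 after ECL. All ECL libraries lay below all controls, and SCL 2 alone of the SCL libraries reached the lowest control. Psmb5 fell after ECL by 0.54 ± 0.15 on the log2 scale (adjusted p = 0.018), and after SCL the value was -0.42 ± 0.15 (adjusted p = 0.0508). The ECL call was lost without ECL 2, without ECL 4 and with scaling over all symbols, and the SCL value passed in 5 of 21 alternatives, one of them the offset for length and GC content. Of its 100-base stretches, 77.8% are unique, the rest being shared with Gm3375 and with Mir686, and adding the counts of Gm3375 left -0.51 ± 0.15 after ECL (adjusted p = 0.0222) and -0.41 ± 0.14 after SCL (adjusted p = 0.046).

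Psmb10, the inducible counterpart of Psmb7, counted 1310, 1648, 1445, 956 and 694 in controls, 1273, 1204, 1055 and 1162 after SCL, and 1451, 1053, 1832 and 1094 after ECL. The groups overlapped, with log2 fold changes of -0.05 ± 0.22 (adjusted p = 0.895) and 0.17 ± 0.24 (adjusted p = 0.632), whose sign turned under other settings. Of the left-out immunoproteasome genes, Psmb8 had means of 303 ± 94.3 in controls, 438 ± 23.2 after SCL and 329 ± 55.9 after ECL (SD). All SCL libraries exceeded all controls, yet the log2 fold change of 0.53 ± 0.25 did not pass (adjusted p = 0.137). Psmb9 stayed below the minimum, with means of 83.1, 88.9 and 72.1.

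**Figure D3:**
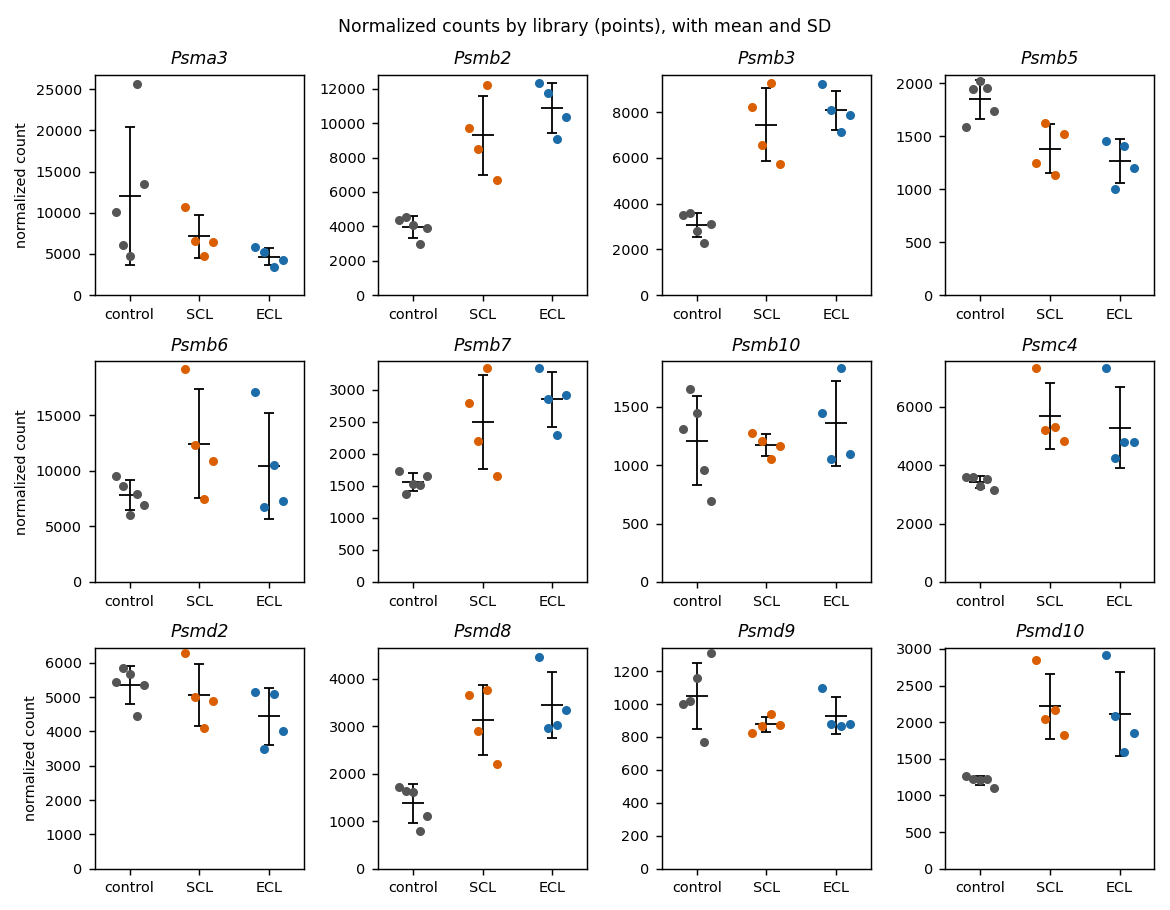
Normalized count (linear axis from 0) in each of the 13 libraries for 12 members, with points for libraries in replicate order, horizontal marks for the mean and bars for the SD. Psmb2, Psmb3, Psmc4, Psmd8 and Psmd10 show no overlap of either lesion with the controls, and the control point of Psma3 near the top of its panel is control 4.

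The start regions of 3 core genes are printed here because their genes moved in opposite directions. Psmb3 rose after both lesions and Psmb6 after SCL, while Psmb5 fell after ECL. Each holds the 250 bases before the RefSeq start on GRCm38.p6, on the strand of the gene (chr11:97703184-97703433, plus strand; chr11:70525107-70525356, plus strand; chr14:54617996-54618245, minus strand), and capitals mark matches, on either strand, to CCAAT or to the core of the antioxidant response element, TGACNNNGC, which is bound by factors of the Nrf family.
Psmb3 promoter: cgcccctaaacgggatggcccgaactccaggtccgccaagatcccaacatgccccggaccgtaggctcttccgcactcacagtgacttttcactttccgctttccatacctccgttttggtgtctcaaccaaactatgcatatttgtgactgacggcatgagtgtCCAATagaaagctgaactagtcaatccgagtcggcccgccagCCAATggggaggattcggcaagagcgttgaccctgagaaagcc
Psmb6 promoter: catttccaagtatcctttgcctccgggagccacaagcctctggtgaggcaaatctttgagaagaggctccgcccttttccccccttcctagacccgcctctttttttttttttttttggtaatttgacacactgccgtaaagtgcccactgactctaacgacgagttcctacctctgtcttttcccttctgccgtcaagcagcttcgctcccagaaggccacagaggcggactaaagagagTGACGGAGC
Psmb5 promoter: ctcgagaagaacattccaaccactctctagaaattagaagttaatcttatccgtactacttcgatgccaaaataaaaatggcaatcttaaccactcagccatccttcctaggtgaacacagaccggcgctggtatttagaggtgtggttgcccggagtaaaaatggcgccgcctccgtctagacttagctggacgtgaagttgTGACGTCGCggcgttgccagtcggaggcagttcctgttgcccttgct
Psmb3 held a CCAAT 85 and another 43 bases before its start. Psmb6 and Psmb5 each held 1 match to the response element core, 9 and 47 bases before the start. They were the only core genes with such a match among the 13 found in the RefSeq table, 15.4%, against 16.7% of 8538 genes tested in both comparisons, in windows that also take in 50 bases after the start. These matches are strings of letters and not shown to be bound here, and matches of different motifs may overlap.

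In the ATPase ring of the cap, 1 of 6 genes rose after SCL (Psmc4) and 2 after ECL (Psmc1 and Psmc4). The shares were 16.7% and 33.3%, against 13% and 15.1% of all genes called higher. Psmc4 counted 3581, 3588, 3289, 3522 and 3159 in controls, 7353, 5197, 5315 and 4843 after SCL, and 7333, 4258, 4785 and 4797 after ECL. Every lesioned library exceeded every control, and SCL 1 and ECL 1 were the highest of their groups. It rose by 0.73 ± 0.14 (adjusted p = 0.00444) after SCL and by 0.63 ± 0.16 (adjusted p = 0.00968) after ECL, and the latter did not pass with the offset for length and GC content. Psmc1 rose after ECL by 0.52 ± 0.15 (adjusted p = 0.0206), a call that ended without ECL 1. After SCL its value was 0.45 ± 0.16, just short of the threshold (adjusted p = 0.0511). The 6 ATPase genes all had log2 fold changes above 0, with a range of 0.22 to 0.73 (SCL) and of 0.13 to 0.63 (ECL), and 4 of them (Psmc2, Psmc3, Psmc5 and Psmc6) passed after neither lesion.

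Of the 8 lid genes, 3 rose after SCL (Psmd6, Psmd8 and Psmd12) and 1 after ECL (Psmd8). These were 37.5% and 12.5%, against 13% and 15.1% of all genes called higher. Psmd8 (ENSMUSG00000030591, chr7:29174188-29180701, minus strand, GRCm38), a subunit added last to the lid, counted 1730, 1634, 1616, 798 and 1102 in controls, 3668, 2899, 3763 and 2201 after SCL, and 4458, 2964, 3033 and 3350 after ECL. Controls 4 and 5 were lowest, and no lesioned library overlapped the controls. It rose 2.27-fold after SCL (log2 1.19 ± 0.23, adjusted p = 0.00485) and 2.52-fold after ECL (1.33 ± 0.22, adjusted p = 0.000836), the largest change in the cap. Psmd14, the lid enzyme that removes ubiquitin chains, did not pass after either lesion. Psmd6 and Psmd12 rose by 0.50 and 0.49 after SCL (adjusted p = 0.0421 and 0.0396), and both calls were lost without SCL 1. After ECL their values were 0.34 and 0.47 (adjusted p = 0.271 and 0.0501), the latter just short of the threshold.

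Psmd1, Psmd2 and Psmd4 belong to the base, where Psmd1 and Psmd2 are the large scaffolds and Psmd4 a ubiquitin receptor. Psmd1 rose by 0.57 ± 0.13 after SCL (adjusted p = 0.00955) and by 0.43 ± 0.14 after ECL (adjusted p = 0.0342), the latter lost in 10 of 21 alternatives, among them the fit without ECL 1. Psmd2 counted 5429, 5846, 5680, 4439 and 5346 in controls, 6284, 5002, 4110 and 4880 after SCL, and 5163, 3489, 5103 and 4001 after ECL. The groups overlapped, with -0.08 ± 0.15 (adjusted p = 0.736) and -0.26 ± 0.15 (adjusted p = 0.214), the lowest value of the cap after ECL.

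Finally, 3 of the Psmd genes code for chaperones that assemble the base and leave the finished particle. Psmd10 (gankyrin) counted 1272, 1226, 1211, 1224 and 1102 in controls, 2851, 2042, 2162 and 1822 after SCL, and 2919, 2088, 1594 and 1855 after ECL. No lesioned library reached down to the controls, and it rose by 0.88 ± 0.15 (adjusted p = 0.00244) and 0.82 ± 0.17 (adjusted p = 0.00334). Psmd5 rose by 0.93 ± 0.24 (adjusted p = 0.0158) and 0.94 ± 0.25 (adjusted p = 0.013), with 4305 and 4464 in SCL 1 and ECL 1 against 1478 to 2218 in the other lesioned libraries and 1117 to 1482 in controls, so that SCL 4 alone reached the controls. Psmd9, by contrast, counted 999, 1016, 1155, 767 and 1312 in controls, 825, 869, 940 and 870 after SCL, and 1096, 879, 868 and 878 after ECL. The groups overlapped, with -0.26 ± 0.16 (adjusted p = 0.259) and -0.17 ± 0.17 (adjusted p = 0.5001). Of its exon bases, 25.5% also belong to Gm26745 on the opposite strand.

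The start regions of Psmd8 (chr7:29180674-29180923, minus strand) and Psmd10 (chrX:140956712-140956961, minus strand), the cap genes with the largest change and with the smallest adjusted p after SCL, are shown with the same marks.
Psmd8 promoter: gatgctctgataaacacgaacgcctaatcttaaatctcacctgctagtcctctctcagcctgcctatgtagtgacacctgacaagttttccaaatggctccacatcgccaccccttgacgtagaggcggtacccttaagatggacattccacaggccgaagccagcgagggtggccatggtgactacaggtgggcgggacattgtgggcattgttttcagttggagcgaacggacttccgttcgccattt
Psmd10 promoter: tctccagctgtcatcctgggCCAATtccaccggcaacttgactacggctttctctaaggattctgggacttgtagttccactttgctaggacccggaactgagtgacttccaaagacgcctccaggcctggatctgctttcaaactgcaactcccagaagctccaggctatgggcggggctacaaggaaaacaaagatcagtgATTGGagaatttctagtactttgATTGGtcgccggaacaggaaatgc
Psmd8 held neither motif, and Psmd10 held 3 CCAAT matches, at 230 bases before the start on the strand of the gene and at 47 and 24 on the other. A CCAAT was found for 5 of 17 cap genes (29.4%) and 7 of 13 core genes (53.8%), against 43.1% of the genes tested. The 7 include Psmb11, which was not tested. The GC box GGGCGG was found for 13 of 17 cap genes (76.5%) and 5 of 13 core genes (38.5%), against 70.1%. The core of the site of nuclear respiratory factor 1 was found for 3 genes of each subcomplex (23.1% of core and 17.6% of cap genes), against 12.1%. Genes with several start regions were counted once. RefSeq start regions were matched for 30 of the 37 genes, all but Psma8, Psmb1, Psmb2, Psmb7, Psmc3, Psmd3 and Psmd7.

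Compared per kilobase of exon, levels within each subcomplex were far from equal. The levels are RNA counts, and amounts of protein were not measured here. A finished particle holds its core proteins in equal numbers, except that Psmb10 takes the place of Psmb7. The chaperones among the cap genes, such as Psmd9, are not part of it. In controls, the highest core gene was Psma6 with 5761 ± 768 normalized counts per kilobase (SD, n = 5), followed by Psmb6 with 4169 ± 733, Psmb1 with 3680 ± 567 and Psmb2 with 3287 ± 511. The lowest were Psmb10 with 710 and Psmb7 with 456. In the cap, Psmc5 (2999), Psmc1 (2733) and Psmd7 (2589) led and Psmd9 (145) was lowest. After both lesions Psmb2 held rank 1 of the core, with 7711 ± 1912 after SCL and 9041 ± 1224 after ECL. After SCL, this value and those of Psma6 (7312) and Psmb6 (6646) lay within the SD of Psmb2 of each other. After ECL, Psma6 followed Psmb2 with 6898 ± 1185. Union exon lengths from GENCODE M21 were used, so a gene with long rarely used exons appears lower. Stretches shared with other genes were not corrected for.

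**Figure D4:**
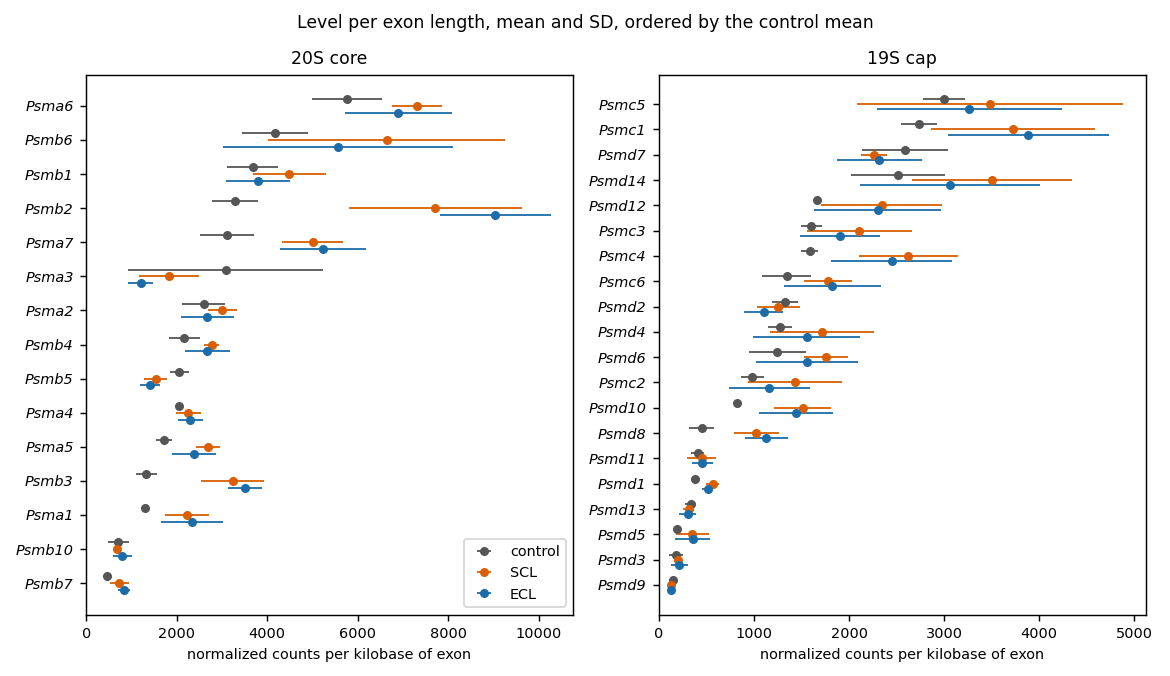
Normalized counts per kilobase of exon (mean, with bars for the SD, linear axis from 0) for the 15 core genes (left) and the 20 cap genes (right) in control (n = 5), SCL (n = 4) and ECL (n = 4) libraries, ordered by the control mean. Psmb2 moved from rank 4 in controls to rank 1 after each lesion.

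Between ECL and SCL, 0 of the 35 tested members differed, against 0.0% of the 12478 genes tested. Psma3 was the 1 member with an unadjusted p under 0.05 in edgeR, against 7.36% of all genes, and its log2 difference (ECL minus SCL) was -0.60 ± 0.25 (SE, adjusted p = 0.651, edgeR). Of the members, 15 had a difference above 0, against 51.2% of all genes, and for 0 did the lesion groups not overlap, against 1.55% (ECL higher) and 2.3% (ECL lower) of all genes. DESeq2 called 79 genes and no member. The differences of the members ran from -0.60 to 0.24 (Psmb2), and their 95% intervals had a median half-width of 0.43, from 0.28 (Psmd9) to 0.79 (Psmd5). For 34 of the 35 the interval lay within 1 log2 unit of 0, and for 22 within 1.5-fold. Sex is unequally spread over these 8 libraries, and with a sex term the median difference of the cap moved from -0.06 to 0.14. Within ECL this term separates ECL 1, the only f library, from the other 3. Without SCL 1 and ECL 1, a fit chosen after seeing the data, the medians were -0.10 (core) and -0.06 (cap).

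Genes around the proteasome were counted by list, and differences between lists were not tested. For the counts of these and the further lists below, the shares over all genes were 13% higher and 11.6% lower after SCL. After ECL they were 15.1% and 12.4%. Of 6 activators and inhibitors, Psme2, part of the interferon-inducible PA28 cap, rose after both lesions (0.70, adjusted p = 0.00498, and 0.51, adjusted p = 0.0177), Psmf1, an inhibitor of the core, rose after ECL (0.63, adjusted p = 0.0334), and Ecpas, an adaptor of the 26S particle, fell after both by 0.38 and 0.41 on the log2 scale (adjusted p = 0.0399 and 0.0279). The 4 cap subunits and partners with other names (Adrm1, Sem1, Uchl5 and Usp14) did not pass after either, with medians of 0.33 and 0.21, against 0.44 and 0.30 for the 20 cap genes. Of 6 tested assembly factors and partners of the particle outside the members (Psmg1, Psmg2, Psmg3, Psmg4, Pomp and Txnl1), 1 fell after ECL (Psmg3, -0.67, adjusted p = 0.0489). Among 11 genes of transcription and control, 0 rose, 1 fell after SCL and 2 after ECL: Ddi2, the protease that releases Nfe2l1 (-0.46 and -0.45, adjusted p = 0.0361 and 0.0404), and Keap1 (-0.78 after ECL, adjusted p = 0.00897).

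Upstream of the particle, Ubb was the 1 of 3 tested ubiquitin genes to rise, by 1.24 ± 0.31 after SCL (adjusted p = 0.0141) and 1.07 ± 0.28 after ECL (adjusted p = 0.0124). Of 26 tested genes of ubiquitin activation and conjugation, 3 rose and 3 fell after SCL, and 4 rose and 3 fell after ECL, with medians of 0.02 and 0.01. Ube2l3 (0.73 and 0.88) and Ube2e1 (1.35 and 1.33) were among those that rose and Ube2r2 (-0.68 and -0.69) among those that fell. Of 13 tested ubiquitin shuttles and p97 genes, which carry substrates to the particle, 1 rose and 3 fell after SCL, and 1 rose and 6 fell after ECL, with medians of -0.31 and -0.34. Ubqln2 (-0.61 and -0.75), Ubqln4 (-0.78 and -0.83) and Vcp (-0.38 and -0.67), the ATPase p97 itself, fell after both.

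Other multi-subunit complexes were counted as well. Of the 9 genes of the COP9 signalosome, which resembles the proteasome lid, 4 rose after SCL and 5 after ECL (medians 0.56 and 0.70), led by Cops6 (1.53 ± 0.28, adjusted p = 0.00353, and 1.71 ± 0.24, adjusted p = 0.000324). Of 13 eIF3 genes, 2 rose and 2 fell after SCL and 1 rose and 3 fell after ECL (medians 0.07 and 0.22), with Eif3k at 1.28 and 1.80 and Eif3a at -0.75 and -0.79. Of 8 genes of the CCT chaperonin, 1 rose after each lesion (Tcp1, 0.45 and 0.46).

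**Figure D5:**
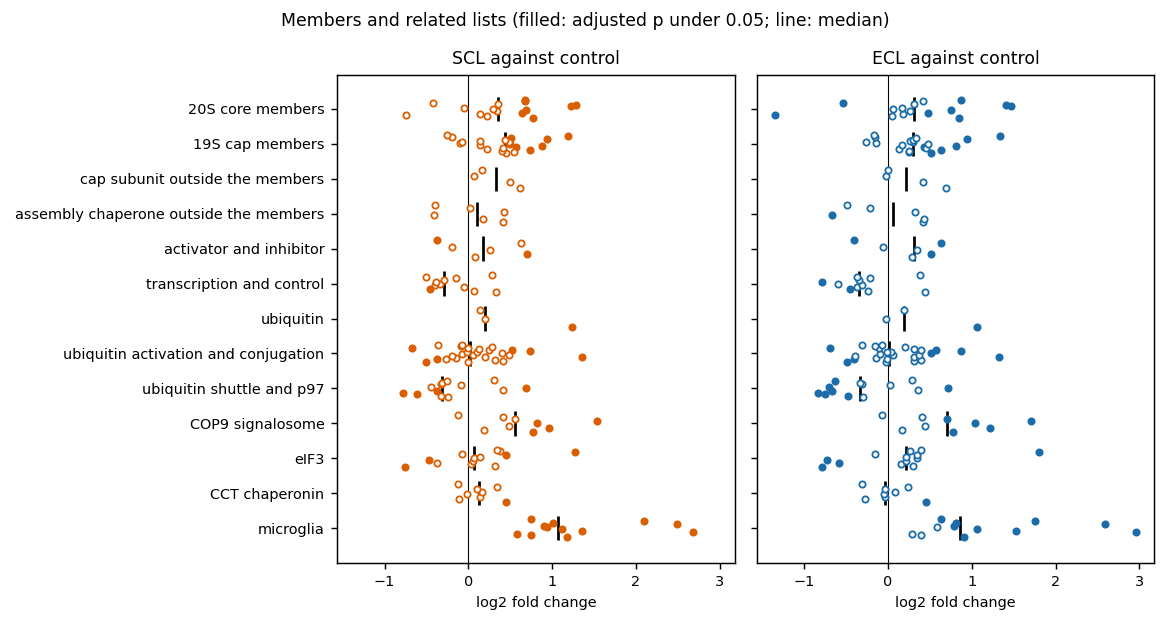
Log2 fold change of each tested gene against control after SCL (left) and ECL (right), by list, with filled points for an adjusted p under 0.05 and a black line at the median of the list. The medians of transcription and control (-0.29 and -0.34) and of shuttles and p97 (-0.31 and -0.34) lie below 0 after SCL and ECL. That of the CCT chaperonin lies above 0 after SCL (0.12) and below 0 after ECL (-0.04). The medians of both subcomplexes and of all other lists lie above 0 after both lesions.

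Markers of cell types moved with the lesions as well. All 12 microglial markers rose after SCL (median 1.07) and 9 after ECL (median 0.86), with C1qb at 1.36 and 1.53, and their summed level was 25964 to 30437 in controls, 46923 to 87276 after SCL and 48099 to 67350 after ECL, with none at 0. Of 8 astrocyte markers, 4 rose after SCL (median 0.33), and 3 rose and 1 fell after ECL (median -0.14). Gfap rose by 0.85 and 0.73, while Sox9 had -0.55 after SCL, which did not pass, and fell after ECL (-1.04). The astrocyte sums were 202860 to 349090 in controls, 238260 to 284420 after SCL and 215530 to 251370 after ECL. Of 12 markers of excitatory neurons, 3 fell after each lesion, among them Nefm (-1.03 and -0.72), and their sums overlapped between groups. Of the CA1 markers, 1 fell after SCL (Pou3f1, -0.82) and 0 changed after ECL, and of 3 tested dentate markers 1 fell after each (Stxbp6). Of 10 oligodendrocyte lineage markers 2 rose after each, of 6 interneuron markers 1 fell after SCL and 2 after ECL, of 3 tested endothelial and mural markers 1 fell after each, and of 8 tested interferon-stimulated genes 1 rose after SCL and 2 after ECL. The part of these shifts in the levels of the proteasome genes was not tested.

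The tested members are shorter than the average gene, with a median exon length of 2808 bases against 4645 over all genes tested, and have a GC content of 50.4% against 49.0%. Across the 35 genes, which are not independent replicates and share all libraries, Spearman's rho of the log2 fold change with length was -0.14 after SCL and -0.18 after ECL, and with GC content -0.15 and -0.09. With an offset for both, the calls over all genes were 1554 up and 1245 down for SCL and 1869 up and 1494 down for ECL, and 5 core genes rose and 1 fell after SCL, 8 cap genes rose after SCL, 5 core genes rose and 2 fell after ECL, and 5 cap genes rose after ECL, with medians of 0.30, 0.27, 0.11 and 0.24 in the order core and cap after SCL, core and cap after ECL. The control libraries spread by a median of 15.4% of the mean over the members and by 20.1% over all genes, the lowest being Psmd12 with 1.502%.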

How the data were processed

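RNA of 13 CA1 isolates was made into libraries with a low-input kit after cDNA amplification and sequenced in pairs. The authors trimmed reads with cutadapt 3.5, mapped them with STAR 2.7.8a to mm10 and counted them with featureCounts 2.0.1, ignoring strand, over GENCODE M25, and they deposited raw counts per gene symbol. In each library 63.0% to 74.3% of the counts from 1 to 20 were even, so a fit on halved counts was among the alternatives.

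Samples were grouped by their titles. The contrasts SCL minus control, ECL minus control and ECL minus SCL were each fitted in R 4.3.3 by edgeR 4.0.16 (quasi-likelihood F test, two-sided, TMM factors over the genes tested, Benjamini-Hochberg, threshold 0.05). Genes needed an average of 150 or more normalized counts, and the code was tested on simulated data. Standard errors were derived from the fold change and its F statistic. DESeq2 1.42.0, other scaling, no minimum, a sex term, a replicate block, a correction for exon length and GC (mgcv 1.9.3) and leaving out each library were alternatives. The biological coefficient of variation was 0.244 (SCL), 0.238 (ECL) and 0.222 (ECL against SCL).

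Lengths, positions and shared 100-base stretches came from GENCODE M21 on GRCm38, which holds 53292 of the 55291 symbols. Start regions came from RefSeq on GRCm38.p6, searched on both strands. The members and all other gene lists were chosen with earlier results of these data known. Values in every library are given for Psmb5, Psmb6, Psmb7 and Psmb10, for the 2 called members of each subcomplex, lesion and direction with the smallest adjusted p and for those with the largest and smallest change, plus Psma1, which was added after its values were seen. Of other lists, at most 3 called genes with the smallest adjusted p are named.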

Additional observations from a re-analysis of the deposited data

Results flagged for a closer look

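Psmd9 had 1096 normalized counts in ECL 1, while the other 3 ECL libraries lay between 868 and 879, so that the gap to the nearest of them was 0.949 of the range of the group. This was 1 of 36 groups examined for a single distant library, and chance alone marks about 1 group in 20. ECL 1 was also the library with the highest value of most cap genes after ECL (18 of 20), against 30.8% of all genes tested in both comparisons.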

How the results depend on the processing

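With the threshold at 0.01, 1050 genes were called after SCL and 1495 after ECL, among them 4 core and 4 cap genes after SCL and 5 core and 3 cap genes after ECL. With no minimum count, 5390 genes were called after SCL and 8034 after ECL, with 13 cap genes after SCL and 11 after ECL. DESeq2 called 12 cap genes after SCL and scaling over all symbols 13, in place of 7, with 2154 and 2554 of all genes called higher, in place of 1529. Between ECL and SCL, all genes called were 79 with DESeq2, 217 with no minimum count, 1 with a fit of all libraries and 1 with a sex term, and no member was among them in any of these. Leaving out single libraries gave 1672 to 2828 genes after SCL, the lowest without SCL 3 and next without SCL 2 (1904), and 0 to 54 between ECL and SCL, the highest without SCL 3 and 2 without ECL 4. The causes were not tested.

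Whether the replicate numbers of the titles pair the cultures is not stated. Correlations of deviations between libraries of the same number ran from -0.147 to 0.529. The highest were those of ECL 1 with SCL 1 (0.529) and of control 3 with ECL 3 (0.403). Not every library correlated best with its own number, and these mixed values do not settle the pairing. With the replicate block, 2356 genes were called after SCL, among them 7 core and 6 cap genes, and 2678 after ECL, among them 7 and 4, and 0 members between lesions. The numbers in the column headings differ from those of the titles, and as a block, chosen after seeing the data, they gave 1824 genes after SCL, with 6 core and 5 cap genes.

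The sign of Psmb10 after SCL (-0.05) turned with DESeq2 (0.0319), DESeq2 size factors (0.0318), scaling over all symbols (0.16), no minimum (0.16), a sex term (0.0287) and the heading numbers as a replicate block (0.0173), and single libraries left out gave -0.1964 to 0.0921. After ECL it turned with the length and GC offset (-0.23), with -0.0047 to 0.3077 over single libraries. Psmd2 after SCL turned with scaling over all symbols and no minimum (0.12 in both) and ran from -0.1988 to 0.0159 over single libraries. Psmd9 after ECL turned with scaling over all symbols (0.0212) and no minimum (0.0209).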
